A study of Danio rerio with 18 samples.

Results

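From the 1-cell to the 16-cell stage of the zebrafish embryo, the distribution of mRNAs between polysomes and polysome-free RNA was followed for 13601 of the 27015 genes in the deposited gene table. The genes taken were those with at least 100 normalized counts in unfractionated RNA at both stages. The value followed for each gene, called the polysome shift here, was the log2 ratio of the polysome-bound to the polysome-unbound library at 16-cell minus the same log2 ratio at 1-cell. A pseudocount of 1 was added to every normalized count, and the shift was centred on the median over the 13601 genes, so that a shift of 0 is that of the median gene. A gene is said to have risen or fallen where its centred shift reached 1 or -1 on the log2 scale, a 2-fold change of its bound to unbound ratio against the median gene. Beside it stands the change of the gene in unfractionated RNA, log2 of 16-cell over 1-cell. Of the 13601 genes, 607 were loci assembled by the submitters and 12294 had a symbol, which is spelled here as in the name table.

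The embryos were wild-type zebrafish of the AB strain, pooled by stage, with no treatment. The groups used were polysome-bound, polysome-unbound and unfractionated RNA of whole 1-cell embryos and of whole 16-cell embryos, each as 1 library depleted of ribosomal RNA. The same 3 kinds of library at egg, 128-cell, 3.5 and 5.3 hours post fertilization (hpf) were used to follow the genes before and after. With 1 library per stage and fraction there is no replicate, and no comparison below has a p-value or a check against biological spread. The counting error given with a shift is the standard error that the number of reads alone would leave, and it covers nothing else. Each library was scaled separately, so a gene called mostly bound or mostly unbound below had the higher normalized count in that library, which is not a share of its molecules.

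An mRNA that is being translated usually carries several ribosomes and sediments with polysomes, while a stored or repressed mRNA stays in light particles. The early zebrafish embryo makes almost no RNA of its own, and it divides on mRNAs that the mother placed in the egg. In oocytes and early embryos these maternal mRNAs are switched on and off largely through the length of their poly(A) tails and the proteins bound to them. The 1-cell embryo has just left meiosis, and the 16-cell embryo is in the rapid synchronous cleavages that alternate between DNA synthesis and mitosis without pause.

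Depth, in M reads (1e6) assigned to transcripts, was 63.87 and 65.39 in the bound libraries of 1-cell and 16-cell, 36.79 and 30.67 in the unbound libraries, and 35.78 and 60.15 in the unfractionated libraries. The maternal mRNAs of nanog, CCNB1 and h1m had 25617, 34613 and 51737 normalized counts in unfractionated RNA at 1-cell and 27239, 39177 and 55425 at 16-cell. Markers of tissues that could have come with the eggs were looked at. Those of liver and skeletal muscle were low, while a few of follicle cells and blood were not. Of 19 liver and yolk precursor markers and 12 skeletal muscle markers in the table, 0 reached 100 normalized counts at both stages. Their summed unfractionated levels at 1-cell and 16-cell were 248 and 167, and 227 and 358. Of 20 follicle cell markers 3 passed the filter (DMRT1, CYP11A1 and CYP17A1) and 17 did not. Their list summed to 14999 and 10609 normalized counts, of which CYP11A1 held 7490 and 3776 and CYP17A1 6991 and 6082. Of 11 blood markers 2 passed (EPB41 and epb41b) and 9 did not, with sums of 3603 and 3712 for the list. EPB41 held 3146 and 3435 of these and epb41b 289 and 133, and both entries carry the RefSeq symbol epb41b. In pooled embryos, a change in a few cells and a smaller change in every cell cannot be told apart.

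At the same 2-fold limit and under this filter, more genes passed in the polysome shift than in the level of unfractionated RNA. The centred shift had a standard deviation of 0.99 over the 13601 genes, and its 5th and 95th percentiles were -1.62 and 1.45. It rose in 1547 genes (11.4% of those compared) and fell in 1791 (13.2%), and 275 and 387 of these passed a 4-fold change. In unfractionated RNA the standard deviation was 0.56, and a 2-fold change was seen in 456 genes upward (3.35%) and 512 downward (3.76%). The filter was set on unfractionated RNA and so limits large changes there. Opposite moves of the bound and unbound libraries add up in the shift. With the filter at 1 normalized count, 4873 and 5054 genes passed in the shift, and 2360 and 2131 in unfractionated RNA. With bound over unfractionated RNA the counts were 670 and 1088, and with unfractionated RNA over the unbound library 667 and 687. How far these choices set the contrast was not tested. Of the genes whose shift rose, 69.6% kept their unfractionated level within 0.5 log2, as did 69.6% of those that fell and 75.5% of all genes. Across genes, the shift and the change in unfractionated RNA had a Pearson r of -0.08 and a Spearman rho of -0.06, a description only, since the genes share 6 libraries.

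The changes in each fraction are given as a description, since the shift that chose the genes is the difference of these 2 changes. In genes that rose, the median log2 change was 0.78 in the bound library, -0.71 in the unbound library and -0.04 in unfractionated RNA. In genes that fell, the medians were -0.86, 0.64 and 0.06. Counting error left 1028 of the 1547 and 1179 of the 1791 beyond the 2-fold limit by 1.96 counting standard errors. Genes with a 0 in any of the 4 fraction libraries numbered 7 among those that rose and 1 among those that fell. That 1 gene was WNT8A, a signalling ligand, with 196 normalized counts in the bound 1-cell library and 0 in the other 3 fraction libraries, although 348 and 375 were counted in unfractionated RNA, and no fold is given for it. At the filter itself, the 261 genes with a smaller unfractionated level of 100 to 110 normalized counts had a median absolute shift of 0.90, and the 285 genes with 90 to 100, just outside, one of 0.79.

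**Figure D1:**
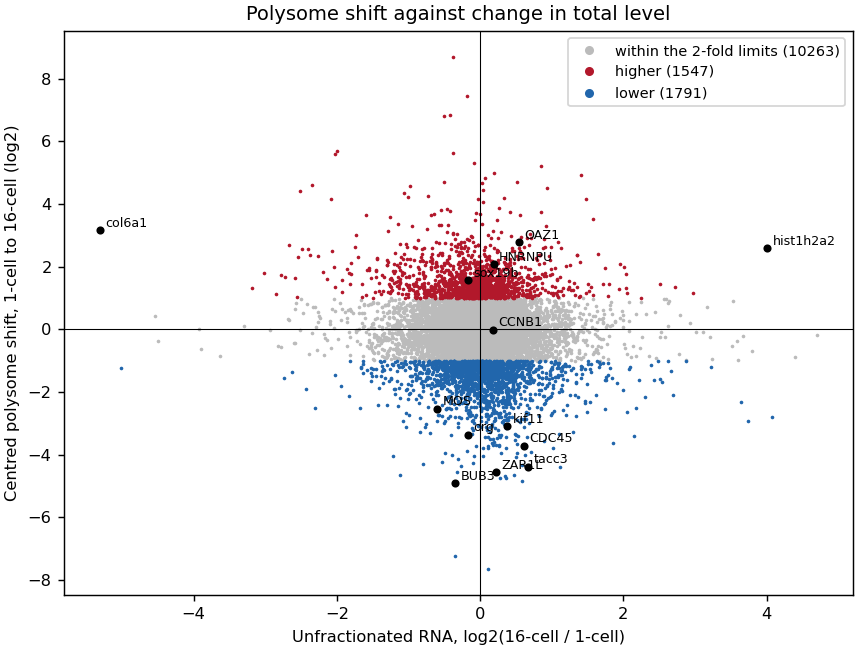
Centred polysome shift from 1-cell to 16-cell (log2, vertical) against the change of unfractionated RNA (log2, horizontal), 1 point per gene for 13601 genes, with the 1547 that rose in red and the 1791 that fell in blue. The cloud is taller than it is wide, with a standard deviation of 0.99 vertically and 0.56 horizontally, and BUB3, ZAR1L, tacc3 and CDC45 lie at its lower edge with changes in unfractionated RNA of -0.35, 0.22, 0.67 and 0.61.

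Libraries that share nothing with the 4 used for the shift gave the same direction for most of these genes. The shift was computed again from the egg to the 128-cell stage, which enclose the 1-cell and 16-cell stages. Of the 1547 genes that rose, 1101 (71.2%) rose by at least 0.5 from egg to 128-cell, against 31.8% of all genes, and 156 (10.1%) moved by as much the other way. Of the 1791 genes that fell, 1349 (75.3%) fell by at least 0.5, against 31.6% of all genes, and 107 (5.97%) moved the other way. Across all genes the shifts of the 2 stage pairs had a Pearson r of 0.61 and a Spearman rho of 0.60.

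The stage pairs matched more closely for genes with more counts. For the 3529 genes with a mean below 500 normalized counts over the 6 libraries of 1-cell and 16-cell, the Pearson r was 0.33, and their median counting error was 0.23. It was 0.65 for the 4075 genes between 500 and 2000, with a counting error of 0.11. For the 5997 genes with a mean of 2000 or more it was 0.83, with a counting error of 0.05. These are correlations across genes, which are not independent replicates, and are given as descriptions.

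**Figure D2:**
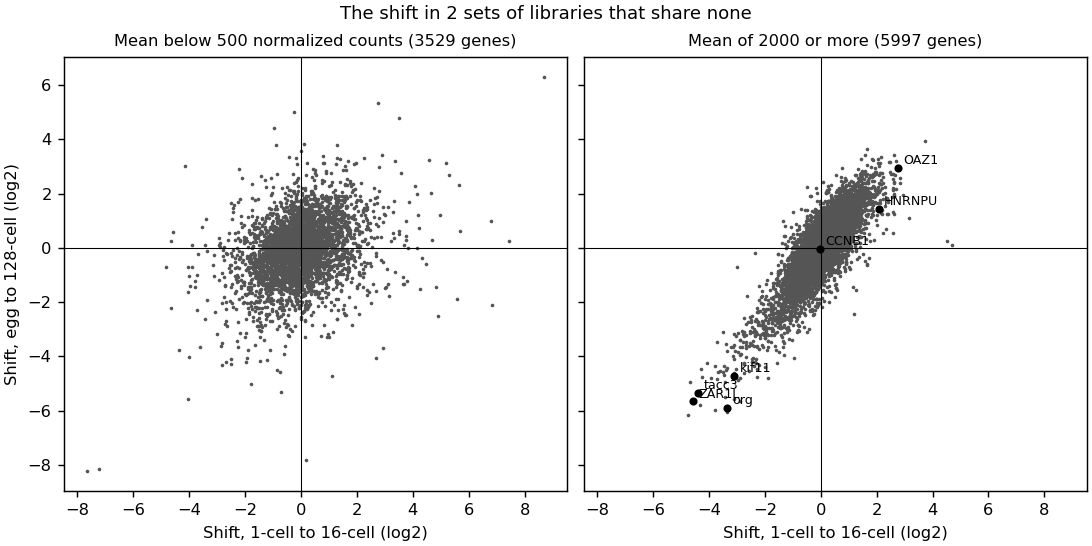
Centred shift from egg to 128-cell (log2, vertical) against that from 1-cell to 16-cell (log2, horizontal), which share no library, for genes with a mean below 500 normalized counts (left, 3529 genes) and of 2000 or more (right, 5997 genes). The points on the right lie along the diagonal (r 0.83) with CCNB1 at the centre, and those on the left form a round cloud (r 0.33).

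Libraries of other stages show where the chosen genes stood before and after. Each stage's bound to unbound ratio, centred on the median gene, is called the polysome ratio here. The values at 1-cell and 16-cell chose the genes, so their order there is fixed by the choice and is given only to complete the series. Genes that fell had a median polysome ratio of 0.37 in the egg, -1.19 at 128-cell, -0.70 at 3.5 hpf and -0.27 at 5.3 hpf, beside 0.71 at 1-cell and -0.97 at 16-cell. Genes that rose had -0.08 in the egg, 0.99 at 128-cell, 0.41 at 3.5 hpf and 0.24 at 5.3 hpf, beside -0.35 at 1-cell and 1.15 at 16-cell. Genes were also divided into 4 equal groups by their polysome ratio in the egg, which the shift does not use. Falls grew more frequent with that ratio, from 10.3% in the lowest group to 10.6%, 13.3% and 18.5% in the highest, while rises made up 11.1%, 12.9%, 12.4% and 9.18%.

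Placed among the steps between neighbouring stages, which share libraries, the step from 1-cell to 16-cell was wider than those around it. The standard deviation of the centred shift was 0.63 from egg to 1-cell, 0.99 from 1-cell to 16-cell and 0.73 from 16-cell to 128-cell. It reached 1.40 from 128-cell to 3.5 hpf and 1.15 from 3.5 to 5.3 hpf. Among genes with a mean of 2000 or more, 1.92% moved 2-fold from egg to 1-cell, 20.2% from 1-cell to 16-cell and 5.90% from 16-cell to 128-cell, followed by 44.0% and 28.3%. Of the 3 steps up to 128-cell, that from 1-cell to 16-cell was the widest in these libraries.

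**Figure D3:**
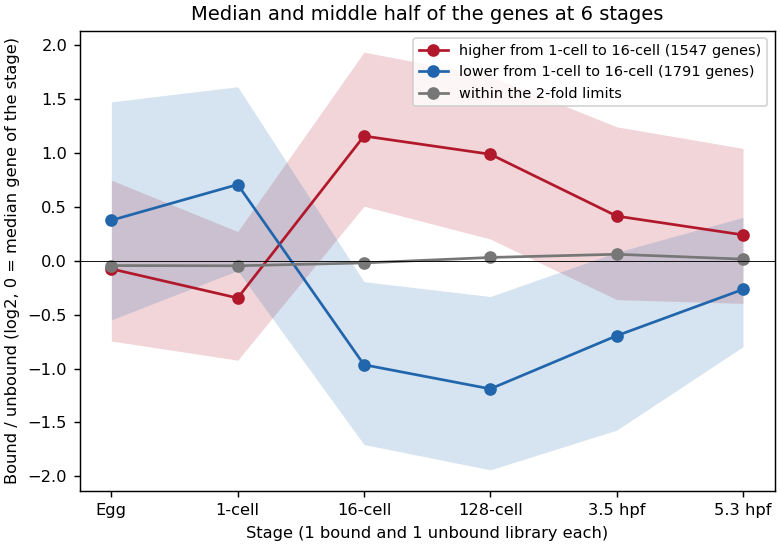
Median polysome ratio (log2 bound over unbound, 0 is the median gene of the stage) at 6 stages for genes that rose (red), fell (blue) or did neither (grey) from 1-cell to 16-cell, with the band from the 25th to the 75th percentile of genes. The difference between the red and blue lines at 1-cell and 16-cell is set by how the genes were chosen; outside these stages the lines lie at -0.08 and 0.37 in the egg, stay apart at 128-cell (0.99 and -1.19) and approach each other by 5.3 hpf (0.24 and -0.27).

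The mRNAs that fell furthest were of several kinds. The lowest shift among genes with a symbol and a mean of at least 500 normalized counts was that of BUB3, a spindle checkpoint protein. It had 5649 bound and 556 unbound normalized counts at 1-cell, and 649 bound and 1886 unbound at 16-cell. Its shift was -4.91 with a counting error of 0.10, while unfractionated RNA went from 962 to 754. The mRNA thus went from mostly bound to mostly unbound, and from egg to 128-cell its shift was -6.46. ZAR1L, an RNA-binding relative of the oocyte factor zar1, had 29448 bound and 4999 unbound normalized counts at 1-cell and 2895 and 11374 at 16-cell. Its shift was -4.56, and its unfractionated level was 8749 and 10209. The spindle protein tacc3 had 85487 bound and 13269 unbound at 1-cell against 14103 and 44568 at 16-cell, a shift of -4.38, and its unfractionated level went from 26231 to 41638. All 3 mRNAs were higher in the bound library at 1-cell and higher in the unbound library at 16-cell.

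Other mRNAs at this end were those of DCK (deoxycytidine kinase, a shift of -4.73), ssna1 (a microtubule-binding protein of the centrosome, -4.75), tmprss4b (a membrane serine protease, -4.68), PEF1 (a calcium-binding protein, -4.36), rpain (an importer of replication protein A, -4.32), MOB2 (a kinase regulator, -4.29), MELK (a mitotic kinase, -4.06) and ATP6V1H (a subunit of the vacuolar proton pump, -3.96). From egg to 128-cell their shifts lay between -6.16 for ssna1 and -4.25 for MELK. None of the 8 changed 2-fold in unfractionated RNA, where MOB2 had the widest change at -0.80 and DCK the log2 value 0.36. Of the 15 lowest genes, zgc:114123 (-4.26), ppp1r9alb (-3.93), zgc:153345 (-3.78) and si:ch211-241j12.3 (-3.78) complete the set.

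The spindle, kinetochore and cytokinesis list had 91 genes, of which 23 fell (25.3%, against 13.2% of all genes), 10 rose (11.0%, against 11.4%) and 58 did neither. Its median shift was -0.23 against 0 for all genes, and all 23 and all 10 kept their direction by at least 0.5 from egg to 128-cell. Of 5 genes taken for the chromosomal passenger complex, which corrects the attachment of chromosomes and steers cytokinesis, 4 fell (80.0%, against 13.2% of all genes). The 5 are not a full set of its subunits. AURKB, its kinase, had 23069 bound and 6116 unbound normalized counts at 1-cell and 4655 and 12866 at 16-cell, a shift of -3.41 and of -4.94 from egg to 128-cell. The survivin genes BIRC5 (-3.34) and birc5b (-2.27) and the borealin-related cdca9 (-3.11) fell as well. The log2 change of birc5b was -2.27 in the bound library, -0.03 in the unbound library and -0.08 in unfractionated RNA. With unfractionated RNA in place of the bound library cdca9 turned to 0.22. The other borealin gene, cdca8, had a shift of 0.35. The complexes and families set apart here were chosen after the values of these data had been seen, and so were the members named outside the rule for named genes.

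The motor proteins of the spindle divided in a similar way. Of 13 mitotic kinesins, 4 fell (30.8%, against 13.2% of all genes) and 1 rose (7.69%, against 11.4%). kif11, the motor that pushes the spindle poles apart, had 64620 bound and 18630 unbound normalized counts at 1-cell and 15793 and 38131 at 16-cell. Its shift was -3.09, and its unfractionated level was 26309 and 34225. KIF4A (-2.78), kif2c (-1.88) and kif15 (-1.48) fell too, whereas the depolymerase KIF2A rose by 1.15 and KIF23, a motor of the cytokinetic midzone, had a shift of 0.24. Among 20 centromere and kinetochore genes 5 fell, led by cenpk (-1.99) and cenpe (-1.98), and CENPF (1.05) and MIS12 (1.26) rose. Of 8 spindle checkpoint genes 2 fell, BUB3 and MAD2L1 (-1.56), and 1 rose, mad2l1bp (1.49), which turns the checkpoint off. Among all genes 13.2% fell and 11.4% rose. The median shift was -0.40 for the centromere and kinetochore genes and 0.25 for the checkpoint genes. Of the 8 checkpoint genes 5 lay above 0, so the checkpoint did not fall as a group. Of 11 cohesin and condensin genes 0 fell and 0 rose, against 13.2% and 11.4% of all genes. Their shifts ran from -0.72 for SMC4 to 0.64 for SMC1A.

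Genes of cytokinesis were found at both ends. ECT2, which activates the small GTPase RhoA at the cleavage furrow, had 31874 bound and 11055 unbound normalized counts at 1-cell and 9301 and 20290 at 16-cell, a shift of -2.68. RACGAP1, its partner at the midzone, had 6746 and 10972 at 1-cell and 19910 and 7241 at 16-cell, a shift of 2.13. Of 1-cell and 16-cell, ECT2 was thus mostly bound only at the first and RACGAP1 only at the second. Both genes named PRC1, a protein that bundles midzone microtubules, rose, ENSDARG00000100918 by 1.98 and ENSDARG00000005993 by 1.08. The furrow scaffold anln rose by 1.22, with 39186 bound and 22817 unbound normalized counts at 1-cell and 81455 and 19911 at 16-cell.

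Several kinases of mitosis fell, while the cyclin mRNA CCNB1 stayed at the median gene. The list of mitotic entry, cyclins and exit had 73 genes, with 12 that fell (16.4%, against 13.2% of all genes), 5 that rose (6.85%, against 11.4%) and a median of -0.19. aurka, a kinase of the centrosome, had 15702 bound and 15266 unbound normalized counts at 1-cell and 5033 and 25183 at 16-cell, a shift of -2.39. plk1, which drives entry into mitosis, had 83160 and 20248 at 1-cell and 36716 and 42544 at 16-cell, a shift of -2.28. CDK1, the central kinase of mitosis, went from 2586 bound and 4332 unbound to 1060 and 4963, a shift of -1.51. At 16-cell all 3 kinases were higher in the unbound than in the bound library. With unfractionated RNA in place of the bound library the value of CDK1 was 0.044, so its fall rested on the bound libraries. bora, which helps aurka to activate plk1, went the other way, with a shift of 1.55.

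CCNB1, the cyclin that CDK1 needs in mitosis, had 152087 bound and 13163 unbound normalized counts at 1-cell and 145403 and 12481 at 16-cell. Its shift of -0.02 placed it at the median gene while it stayed mostly bound at both stages. CCNB2 (0.66), CCNA1 (0.59) and CCNA2 (0.36) lay above 0 but within the limits. Of the 10 cyclins, only ccnd3 passed the limit, at -1.05 on 509 and 323 unfractionated normalized counts. In the anaphase-promoting complex and its regulators, which destroy cyclins at the end of mitosis, 4 of 20 fell and 1 rose. Among all genes 13.2% fell and 11.4% rose. The falls included the subunit ANAPC13 (-2.93), the ubiquitin-chain enzyme UBE2S (-1.39) and the inhibitor fbxo5 (-1.33). The subunit ANAPC16 rose (2.36), with 59.1 normalized counts left in the unbound library at 16-cell. All 4 falls kept their direction by at least 0.5 from egg to 128-cell, and the rise of ANAPC16 did not.

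In DNA replication, 10 of 68 genes fell (14.7%) and 5 rose (7.35%), with a median of -0.01, and the share of falls was near the 13.2% of all genes. CDC45, part of the helicase that opens the DNA, had 33310 bound and 5862 unbound normalized counts at 1-cell and 8218 and 18703 at 16-cell, a shift of -3.72. Its unfractionated level was 8465 at 1-cell and 12906 at 16-cell. Its helicase partner GINS2 (-1.88), the primase subunit PRIM2 (-2.29), the polymerase POLA1 (-1.73) and the origin protein ORC1 (-1.88) fell. GINS2 turned to 0.35 with unfractionated RNA in place of the bound library. The enzymes of thymidylate and deoxycytidine supply, DTYMK (-3.43) and DCK, fell as well, while the ribonucleotide reductase subunit RRM1 had a shift of 0.28. CDT1, which loads the helicase, rose by 1.67, from 11580 bound and 19051 unbound normalized counts to 36566 and 18477. Its inhibitor GMNN (geminin) rose beside it by 1.35, from 45184 and 58534 to 92115 and 45776. The helicase subunits MCM2 to MCM7 stayed within the limits, between -0.75 for MCM2 and 0.18 for MCM6.

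The oocyte and egg genes had the lowest median of the 21 lists with at least 5 members. Of 43 genes 15 fell (34.9%, against 13.2% of all genes) and 1 rose, the median shift was -0.50, or -0.10 with unfractionated RNA in place of the bound library, and 13 of the 15 kept their direction from egg to 128-cell. org (oogenesis-related gene) had 66607 bound and 5651 unbound normalized counts at 1-cell and 16825 and 14478 at 16-cell, a shift of -3.37. MOS, the kinase that holds the egg in meiosis, had 6311 and 5888 at 1-cell and 1227 and 6491 at 16-cell, a shift of -2.53. BTG4, which recruits the deadenylase that removes maternal mRNA in mammals, had 19493 and 19280 at 1-cell and 5084 and 23265 at 16-cell, a shift of -2.24. org was near even between the libraries at 16-cell, and MOS and BTG4 were mostly unbound. The log2 change of BTG4 was -1.94 in the bound library, 0.27 in the unbound library and 0.17 in unfractionated RNA. Its fall thus rested on the bound libraries.

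CYP11A1, which begins steroid synthesis and is also on the follicle cell list, fell by 2.74, with an unfractionated level of 7490 and then 3776. CYP17A1, a later enzyme of that pathway on the same marker list, had a shift of 0.46. The part of follicle cells in these values was not tested. Among the egg coat genes (zona pellucida) 2 of 10 fell, zp2.1 (-1.06) and zp2.3 (-1.07), and 1 rose, zp2.5 (1.30). Among all genes 13.2% fell and 11.4% rose. From egg to 128-cell the shift of zp2.5 was -1.08, so its rise was not kept. zp2.1 (-1.47) and zp2.3 (-0.93) kept their direction there. The egg coat genes have near-identical copies, between which the authors' counting could divide reads.

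**Figure D4:**
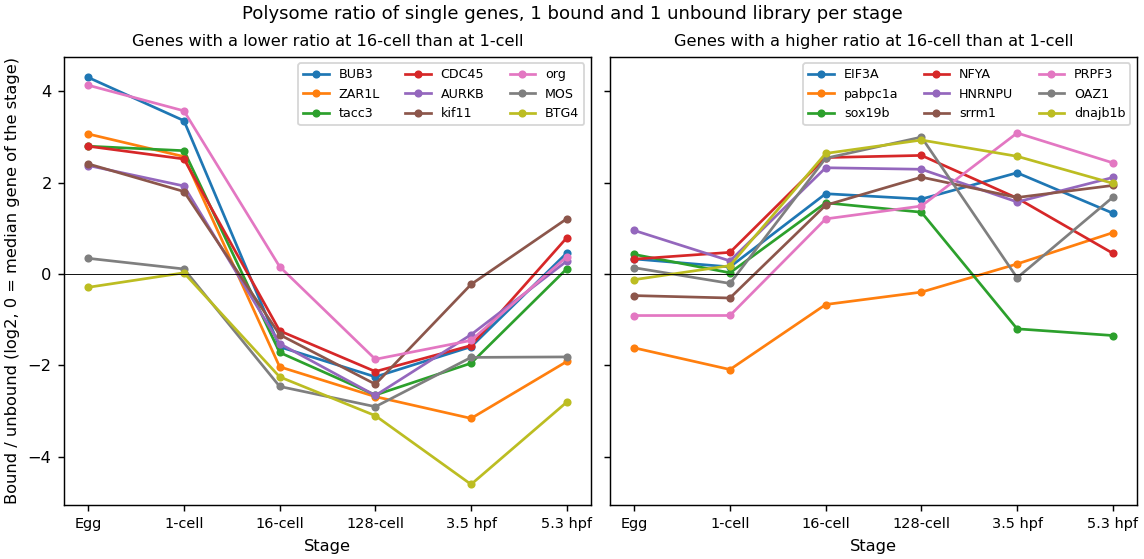
Polysome ratio (log2 bound over unbound, 0 is the median gene of the stage) at 6 stages for 9 genes that fell (left) and 9 that rose (right) from 1-cell to 16-cell, 1 bound and 1 unbound library per point. BUB3 drops from 3.35 at 1-cell to -1.59 at 16-cell and BTG4 from 0.03 to -2.25, while HNRNPU climbs from 0.29 to 2.32 and the low-starting pabpc1a from -2.09 to -0.67.

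Factors that store and polyadenylate maternal mRNA were themselves divided. Of 68 genes 7 rose (10.3%) and 4 fell (5.88%), against 11.4% and 13.2% of all genes, with a median of 0.21. TENT2, the cytoplasmic poly(A) polymerase also known as GLD2, had 7194 bound and 5478 unbound normalized counts at 1-cell and 1644 and 6889 at 16-cell, a shift of -2.49. pabpc1a, a poly(A)-binding protein, had 10789 and 46216 at 1-cell and 27482 and 41975 at 16-cell, a shift of 1.46, and remained mostly unbound. YBX1, an RNA-binding repressor of maternal mRNA, had a shift of 1.02 that turned to -0.71 from egg to 128-cell and to -0.56 with unfractionated RNA in place of the bound library, and its unfractionated level went from 7981 to 4277. CPEB1, which directs cytoplasmic polyadenylation, had a shift of 0.08, DDX6, a helicase of stored mRNA, one of 0.54, and ZAR1 one of 0.14, so that ZAR1 and ZAR1L differed widely. EIF4EBP2, which binds the cap factor eIF4E and keeps it from use, rose by 1.34.

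Deadenylation and decay genes showed 10 rises (13.3%) and 7 falls (9.33%) among 75, near the 11.4% and 13.2% of all genes, with a median of 0.10. The nucleases DIS3 (1.51) and DIS3L2 (1.27) and the cap scavenger DCPS (1.41) rose, and the decay activators ZFP36L1 (-1.33) and ZFP36L2 (-1.31) and the decapping cofactor dcp1a (-1.30) fell. In the CCR4-NOT deadenylase, CNOT9 (1.39) and CNOT6L (1.25) rose, cnot6b fell (-1.32) and the scaffold CNOT1 had a shift of 0.52.

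The splicing factors had the highest median of the 21 lists. Of 98 splicing factors 27 rose (27.6%) and 2 fell (2.04%), 78 lay above 0, and the median shift was 0.52, where all genes had 11.4%, 13.2% and a median of 0. With unfractionated RNA in place of the bound library the median of the list was 0.19. Of the 27, 23 rose by at least 0.5 from egg to 128-cell, where the median of the list was 0.51. PRPF3, a protein of the U4/U6 particle, had 13216 bound and 24958 unbound normalized counts at 1-cell and 29303 and 12222 at 16-cell, a shift of 2.15. srrm1, a splicing coactivator, had 6949 and 10068 at 1-cell and 21681 and 7345 at 16-cell, a shift of 2.07. The RNA-binding protein HNRNPU (ENSDARG00000004735) had 43366 and 35790 at 1-cell and 137836 and 26474 at 16-cell, a shift of 2.08. PRPF3 and srrm1 were mostly unbound at 1-cell, and all 3 were mostly bound at 16-cell.

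The rises were spread over several families of the splicing machinery. Of 24 hnRNP genes 8 rose (33.3%, against 11.4% of all genes) and 0 fell (against 13.2%). The rises included both genes named HNRNPU, both named PTBP1 and HNRNPL (1.73). Of 10 SR genes and their TRA2 relatives 4 rose (40.0%) and 0 fell, led by TRA2A (1.91) and SRSF4 (1.57). Among 17 Sm and snRNP genes 3 rose (17.6%) and 2 fell (11.8%). SNRPB2 (1.72), SNRPC (1.63) and SNRNP70 (1.03) rose, and the ring proteins SNRPD2 (-1.43) and SNRPF (-1.19) fell. Of these, 1 of the 3 rises and 2 of the 2 falls kept their direction by at least 0.5 from egg to 128-cell. Of the rises in hnRNP genes 7 of 8 did so, and of those in SR genes 3 of 4. Of 12 SF3 and U2AF genes 1 rose (8.33%), SF1 (1.72), which recognises the branch point, and the rest stayed within the limits. Whether these families differ from each other was not tested.

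Of 52 maternal transcription factors 11 rose (21.2%) and 3 fell (5.77%), against 11.4% and 13.2% of all genes, and their median was 0.30, against -0.047 with unfractionated RNA in place of the bound library. sox19b, a SoxB1 factor of genome activation, had 13658 bound and 13504 unbound normalized counts at 1-cell and 31928 and 10437 at 16-cell, a shift of 1.57. nanog, which acts with it, had 75292 and 21295 at 1-cell and 121284 and 22425 at 16-cell, a shift of 0.59 that did not reach the limit. pou5f3, the third of these factors, had 55247 and 18233 at 1-cell and 77778 and 14683 at 16-cell, a shift of 0.78. From egg to 128-cell the shifts were 1.02 for sox19b, 0.59 for nanog and 0.01 for pou5f3, so that of pou5f3 was not kept. nanog and pou5f3 were mostly bound at both stages, whereas sox19b was near even at 1-cell and mostly bound at 16-cell.

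Further maternal transcription factors rose. NFYA (ENSDARG00000001621), a subunit of the CCAAT-box factor, rose by 2.11, from 4101 bound and 2974 unbound normalized counts to 9349 and 1538. The TATA-binding protein TBP rose by 1.31, the initiation factor GTF2B by 1.55 and the nodal signal partner foxh1 by 1.25. Their unfractionated changes lay between -0.50 for NFYA and 0.13 for GTF2B. MYBL1, a factor of germ cells, fell (-1.70) as its unfractionated level rose from 462 to 1739, and its value was 0.14 with unfractionated RNA in place of the bound library.

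Genes of the cytoskeleton and of membrane traffic in cleavage rose in 11 (16.4%) and fell in 4 (5.97%) of 67, against 11.4% and 13.2% of all genes, with a median of 0.33. The actin regulators PFN2 (1.65), pfn1 (1.26) and cfl1l (1.41), the tubulin-folding cofactor TBCB (2.04) and the endosomal GTPase RAB5C (1.83) rose. RAB11B, a GTPase of recycling membranes, fell by 3.10, and its unfractionated level went from 3480 to 1691. The actin mRNAs themselves stayed within the limits, actb1 at 0.16 and actb2 at 0.49, and were mostly unbound at both stages, with 12586 bound and 59459 unbound normalized counts for actb1 at 16-cell.

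Translation genes moved little as groups. Of 79 cytosolic ribosomal protein genes 5 rose (6.33%) and 1 fell (1.27%), against 11.4% and 13.2% of all genes, with a median of 0.18 that turned to -0.45 from egg to 128-cell, and with a median unfractionated change of -0.32. Of the 5 that rose, 2 did so by 0.5 or more from egg to 128-cell: RPL15 (1.49 and then 1.04) and RPL37 (1.64 and 0.97). RPS10 went from 1.39 to -0.42 in that comparison and RPS19 from 1.24 to -0.61, so the direction of the ribosomal protein genes rested on the stages compared. Of 52 initiation factor genes 3 rose (5.77%) and 4 fell (7.69%), both below the shares of all genes. EIF3A, the largest subunit of eIF3, had 18763 bound and 16967 unbound normalized counts at 1-cell and 49231 and 14015 at 16-cell, a shift of 1.64, and EIF1 (1.76) rose as well. EIF4H (-1.29), EIF4B (-1.05) and the scaffold EIF4G1 (-1.02) fell, and EIF4H turned to 0.42 from egg to 128-cell. In the aminoacyl-tRNA synthetases 1 of 23 fell (4.35%), LARS1 (-1.45), and 0 rose. In the proteasome 1 of 46 rose (2.17%), PSMC4 (1.64), and 0 fell. These shares too were below the 11.4% and 13.2% of all genes.

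Genes of the nuclear-encoded respiratory chain fell in 12 (16.7%) and rose in 4 (5.56%) of 72, against 13.2% and 11.4% of all genes, with a median of -0.35 and of -0.69 from egg to 128-cell. Of the 12 that fell, 11 kept their direction, against 1 of the 4 that rose. Complex I held 5 of the falls (13.9%) and 4 rises (11.1%) among 36 genes, near the shares of all genes. Its shifts ran from -2.83 for NDUFA2 to 3.34 for NDUFA6, which had 207 and 240, and 177 and 119 normalized counts in unfractionated RNA. NDUFS7, on 1109 and 1078, fell by 1.32, and the ATP synthase subunit ATP5PD fell by 1.15, or stood at 0.64 with unfractionated RNA in place of the bound library, where the median of the list was 0.025. The 13 mitochondrially encoded mRNAs, which are translated inside the organelle, all stayed within the limits, with a median of 0.04. Their median unfractionated change was 0.53, and their median shift from egg to 128-cell was -1.49.

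**Figure D5:**
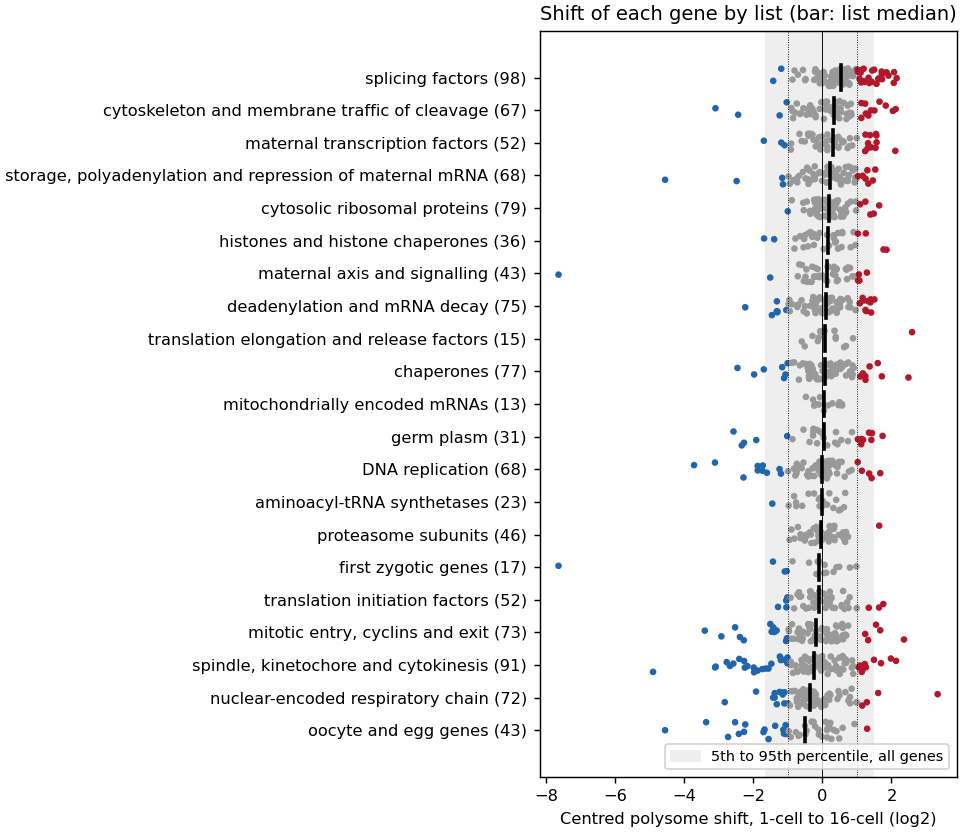
Centred polysome shift from 1-cell to 16-cell (log2, horizontal) of each gene of 21 lists, with the number of genes in brackets, a bar at each list's median and a grey band from the 5th to the 95th percentile of all genes; red and blue points passed the 2-fold limit. The list medians run from 0.52 for splicing factors to -0.50 for oocyte and egg genes, and the point near -7.65 is WNT8A, which is in 2 lists and has 0 counts in 3 fraction libraries.

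The germ plasm list spread widely, with 8 rises (25.8%) and 5 falls (16.1%) among 31 genes, against 11.4% and 13.2% of all genes, and a median of 0.04. DDX4 (vasa), a helicase of germ cells, had 10716 bound and 6178 unbound normalized counts at 1-cell and 15771 and 3941 at 16-cell, a shift of 1.18. buc, which organises the germ plasm, had a shift of -0.27 and was mostly unbound, with 13536 bound and 48097 unbound normalized counts at 16-cell. Of 14 genes of the piRNA pathway, which silences transposons, 3 rose (21.4%), 4 fell (28.6%) and 7 did neither, with a median of -0.02. The Argonaute gene PIWIL1 (1.74) and its partner TDRD6 (1.42) rose. The factors of piRNA processing tdrd12 (-2.58), tdrkh (-2.34) and pld6 (-1.92) fell. Whether parts of the pathway differ was not tested.

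Chaperones rose in 9 (11.7%) and fell in 7 (9.09%) of 77 genes, near the 11.4% and 13.2% of all genes. dnajb1b, a cochaperone of Hsp70, had 11489 bound and 10184 unbound normalized counts at 1-cell and 47896 and 7402 at 16-cell, a shift of 2.49, and it rose by 3.15 from egg to 128-cell. Among maternal axis and signalling genes 4 rose (9.30%) and 2 fell (4.65%) of 43, both below the shares of all genes, and the rises included DVL3 (1.29), which carries Wnt signals, and the nodal co-receptor tdgf1 (1.06), while gdf3, a maternal ligand of the same pathway, had a shift of -0.29. Of the first zygotic genes, 17 of the 76 in the table passed the filter at these stages. Of these, 4 fell (23.5%, against 13.2% of all genes) and 0 rose (against 11.4%).

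The list of histones and histone chaperones had 36 genes, of which 4 rose (11.1%) and 2 fell (5.56%), with a median of 0.16. All genes had 11.4% and 13.2%. Core histone genes of the replication-dependent kind, set apart by symbol after the values were seen, rose in 7 of the 7 that passed the filter. Their median shift was 2.02, and it was 2.01 from egg to 128-cell. hist1h2a11, an H2A gene, had 2758 bound and 3189 unbound normalized counts at 1-cell and 6578 and 1501 at 16-cell, a shift of 2.31. hist2h3c, an H3 gene, went from 4333 and 2581 to 8027 and 1375, a shift of 1.77, with an unfractionated level of 2307 and then 661. With unfractionated RNA in place of the bound library hist2h3c turned to -0.90. The median unfractionated change of the 7 genes was -1.26, beside 0.89 in the bound and -0.91 in the unbound library. In unfractionated RNA 5 of the 7 changed 2-fold, and not all downward, since hist1h2a2 rose by 4.01 log2. These genes belong to large families of near-identical copies, so the level of a single one is uncertain. slbp, which binds the end of these mRNAs for their translation, fell by 1.69. Its log2 change was -1.19 in the bound library, 0.47 in the unbound library and 0.40 in unfractionated RNA. The maternal linker histone h1m stayed mostly bound, with a shift of 0.13. The histone chaperone gene ASF1B fell in both copies, ENSDARG00000101037 by 3.11 and ENSDARG00000043713 by 1.61.

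The mRNAs that rose furthest were a mixed set. OAZ1, the antizyme that limits polyamine synthesis, had 3919 bound and 4550 unbound normalized counts at 1-cell and 18969 and 3154 at 16-cell. Its shift was 2.78 with a counting error of 0.05, and 2.95 from egg to 128-cell. si:dkey-23a13.1 had a shift of 3.72, from 6294 bound and 17951 unbound normalized counts to 27022 and 5735. Both mRNAs were higher in the unbound library at 1-cell and in the bound library at 16-cell, and the log2 change in unfractionated RNA was 0.55 for OAZ1 and -0.06 for si:dkey-23a13.1. ano9a (a membrane protein of the anoctamin family, 2.84), zgc:114046 (2.93) and hipk1a (a nuclear kinase, 3.03) also belonged to the 15 highest. So did CASP6 (a caspase, 2.97), RGS5 (a regulator of G protein signals, 2.92) and DAZAP1 (an RNA-binding protein, 2.79). From egg to 128-cell the shifts were 2.57 for ano9a, 1.95 for zgc:114046 and 0.86 for hipk1a. They were 1.81 for CASP6, 1.56 for RGS5 and 0.52 for DAZAP1.

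Among genes with a symbol and a mean of at least 500 normalized counts, the 2 highest shifts had few reads in the unbound 16-cell library. FRMPD3, a scaffold protein, had a shift of 4.61, with 79.1 normalized counts there, and RRAD, a small GTPase, one of 4.43 with 4.55. From egg to 128-cell the shifts were -0.28 and -0.14, and in unfractionated RNA the genes went from 1176 to 231 and from 883 to 154. zgc:173552 (3.66), btr01 (3.13) and CASP6 (2.97) were likewise down to 100, 114 and 77.8 normalized counts in that library.

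Genes with the widest change in unfractionated RNA followed no single pattern in the shift. col6a1, a collagen, had the deepest fall, from 5610 to 141 normalized counts, and it stood at 2681 in the egg and 2369 at 128-cell. sc:d217 went from 3407 to 105, samd9l from 2496 to 107, fgd5a from 3600 to 158 and trim35-29 from 7002 to 459. Upward, trim25 went from 116 to 3038 with 2628 in the egg, EFNA1 from 112 to 1919 with 1881, and sulf2a from 113 to 1575 with 1166. These 3 genes were thus low at 1-cell against the stages on both sides of it. si:ch211-166a6.5 (112 to 2387) and hist1h2a2 (197 to 3179) were low in the egg as well, at 89.3 and 327. Of these 10 genes, the shift rose in col6a1 (3.16) and hist1h2a2 (2.59), fell in EFNA1 (-2.78) and sc:d217 (-1.24) and stayed within the limits in the other 6, and the trim and histone genes have close copies.

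The shifts are relative to the median gene, and the scale of the libraries sets where that gene lies. Before centring, the median shift was 0.03 on the deposited scale and -0.07 with the libraries scaled to their totals. Scaled to 4 control entries of the transcript files, which made up 1.97% and 1.66% of the bound and 0.56% and 0.67% of the unbound libraries at 1-cell and 16-cell, it was 0.45. The labels do not say what these entries are or in what amount they were added. Whether the median mRNA moved onto or off polysomes is therefore not given here, and every direction above is against that median.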

How the data were processed

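RNA of pooled wild-type embryos at 6 stages was sequenced as polysome-bound, polysome-unbound and unfractionated libraries, 18 in all. The gene table deposited by the authors holds a signal of normalized counts for 27015 genes, each library scaled separately. The transcript files deposited by the authors hold estimated counts and TPM, per the file headers; the estimated counts gave the depth and 1 alternative, and the TPM were not used here. Per the submitters' processing notes, the genome build was GRCz10 and the tools included Salmon 0.6.0, DESeq2, GSNAP, STAR 2.4.2a and Cufflinks 2.2.1, besides cutadapt 1.9.1 and bcl2fastq 2.16.10; roles and order are not given in the sources used here. Per the labels' protocols, a RiboZero kit removed ribosomal RNA and the library kit kept the strand. Depth at 1-cell and 16-cell was 30.67 to 65.39 M reads, and counting errors cover counting only.

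Shifts, medians and counts were computed with Python 3.11.15, numpy 2.4.6 and pandas 2.3.3 and checked on simulated data. The pseudocount was 1, the filter 100 normalized counts in both unfractionated libraries and the limit a centred log2 of 1. The counting error used the depth of each of the 4 fraction libraries. No p-value was computed, since each condition has 1 library. Symbols came from a name table (12294 of 13601 genes matched), and 10838 had a RefSeq record by symbol or synonym.

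Genes named are, among those with a symbol and a mean of at least 500 normalized counts over 6 libraries, the 15 highest and 15 lowest shifts, the 5 highest and 5 lowest unfractionated changes, up to 4 members of each of 25 lists by absolute shift, and 17 maternal genes whatever their values. Members and lists were chosen with earlier results of these data known, and families and further members after their values were seen. Alternatives covered the pseudocount, the filter, the centring, the reference library, the stages, the fold and single transcripts. 1 alternative, without genes whose unfractionated level changed 2-fold, was chosen after seeing the data.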

Additional observations from a re-analysis of the deposited data

How the results depend on the processing

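The main values were 1547 rises (11.4%) and 1791 falls (13.2%) of the shift among 13601 genes. A filter of 500 normalized counts gave 844 (8.98%) and 1053 (11.2%) of 9403 genes. One of 1 gave 4873 (20.6%) and 5054 (21.4%) of 23600 genes. The 4-fold limit gave 275 and 387, and single transcripts gave 3055 (16.6%) and 3245 (17.6%) of 18427. With the bound library over unfractionated RNA the counts were 670 and 1088, and with unfractionated RNA over the unbound library 667 and 687. The other alternatives, which were a pseudocount of 10, no centring, egg as the first stage, 128-cell as the second, egg to 128-cell and genes without a 2-fold unfractionated change, left both counts within 1.5 times of these. Unfractionated changes numbered 125 upward and 156 downward at the filter of 500, 2360 and 2131 at that of 1, and 716 and 1086 for transcripts. Rises kept from egg to 128-cell numbered 726 at the filter of 500 and 2421 at that of 1, and falls kept 2800 at the filter of 1.

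Of 210 list medians and alternatives 191 moved by less than the limit set for them, 17 moved and 2 turned. Over the unbound library alone, with unfractionated RNA as the numerator, the maternal transcription factors stood at -0.047, the oocyte and egg genes at -0.10, the splicing factors at 0.19 and the respiratory chain at 0.025. Of 1350 values of named genes, 809 stayed, 514 moved and 27 turned. With that numerator these were cdca9 (0.22), ARPC5 (0.25), GINS2 (0.35), MYBL1 (0.14), CDK1 (0.044), ATP5PD (0.64), RASGEF1B (0.055), YBX1 (-0.56), hist2h3c (-0.90) and h2ax (-0.80). With bound over unfractionated RNA they were sc:d217 (0.22) and RRAD (-0.18). With egg as the first stage they were YBX1 (-0.092), ndufv3 (-0.44), ndufc2 (-0.25) and RPS10 (-0.16), and with 128-cell as the second RPS19 (-0.18) and RRAD (-0.89). From egg to 128-cell they were EFNA1 (0.18), EIF4H (0.42), YBX1 (-0.71), RPL23A (-0.51), ndufv3 (-0.15), RPS19 (-0.61), RPS10 (-0.42), RRAD (-0.14) and FRMPD3 (-0.28). The cause was not tested. No paired analysis was possible because each stage and fraction has 1 library. Depth limits the genes under 500 normalized counts most, with a median counting error of 0.23.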
